A study of Mus musculus with 2 samples.

Results

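Glycolysis and hypoxia response genes were compared between mouse embryonic stem (ES) cells and the neural cells made from them. The group holds 35 genes of 19147 that were named on the arrays: 21 glycolytic genes, 12 other hypoxia targets and 2 alpha subunits of the hypoxia-inducible factor (HIF). A gene belonged when a probe's gene name in the scanner files was its symbol or an older one (Pkm was listed as Pkm2 and Ero1a as Ero1l); the list itself was drawn up with earlier results of these data known. The day 0 group was the R1 line as undifferentiated ES cells, for which the labels give fibroblast feeders that could no longer divide, 15% serum and 1000 U/ml of leukaemia inhibitory factor (LIF). The day 6 group was the same line as embryoid bodies, floating aggregates that the labels also call neural precursors. No gene was altered in either group. The labels do not say which medium and oxygen level the aggregates had, or whether feeders were removed, so effects of medium, feeders, aggregation and differentiation cannot be told apart.

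Total RNA of each group was measured on 1 one-colour Agilent array, both on the same slide. With 1 array per group no test was possible, every difference describes these 2 RNA samples, and their number limits the precision. An intensity is the scanner software's background-subtracted signal of a gene's brightest probe. A difference is day 6 minus day 0 on the log2 scale after each array's 75th percentile was subtracted, so 1 unit is 2-fold. The ± value is the software's error (SD) of that difference, 0.20 at the median of 14713 measured genes, and holds no variation between cultures. The markers followed the labels. All 6 ES cell markers were at least 2-fold lower on day 6 (their summed intensity was 440893 on day 0 and 7707 on day 6), and 7 of 8 neural markers were at least 2-fold higher. Of 4 measured endoderm markers 2 were at least 2-fold higher, Sox17 (329 and 1153) and Foxa2 (411 and 50104). Gata6 (473 and 504) and Gata4 (73.2, not well above background, and 141) were within 2-fold, and Afp was not well above background. Whether the Foxa2 signal came from endoderm was not tested. Both measured markers of embryonic blood were at least 2-fold higher. Of 4 measured mesoderm markers 1 was at least 2-fold higher and 2 were lower (1 with dim signals at their bound). Of 11 measured fibroblast markers, 6 were at least 2-fold lower and 1 was higher, with summed intensities of 133554 and 31537; Fap was not well above background on either array.

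Glycolysis splits glucose into pyruvate and yields ATP without oxygen. Rapidly growing cells such as ES cells are known for running it fast and turning much of the pyruvate into lactate. When oxygen is low, prolyl hydroxylases (the Egln proteins) stop marking the HIF alpha subunits for destruction by the VHL ligase, and HIF then switches on genes that carry ACGTG or GCGTG, the core of the hypoxia response element. Many glucose transporter and glycolytic genes are HIF targets too. The other targets serve blood vessel growth, mitochondrial turnover, pH control, collagen modification and the feedback that destroys HIF.

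The 12 other hypoxia targets were mostly higher on day 6, whereas the 21 glycolytic genes lay on both sides of 0. Of the 35 genes, 11 were higher by 2-fold or more (20.2% of all measured genes were) and 2 were lower by as much (20.8% of all measured genes). Among the 11 were 8 of the 12 hypoxia targets and 3 of the 21 glycolytic genes. The median difference of the hypoxia targets was 1.24 (2.36-fold), that of the glycolytic genes 0.31 (1.24-fold), and that of all measured genes -0.09. At 4-fold, 5 of the 35 genes were higher (9.64% of all measured genes) and 1 was lower (10.2%). At 1.5-fold, 17 were higher (28.1%) and 5 lower (31.3%). The share of the 35 genes past 2-fold on the lower side was thus below that of all genes, and the share on the higher side above it, neither of which was tested.

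**Figure D1:**
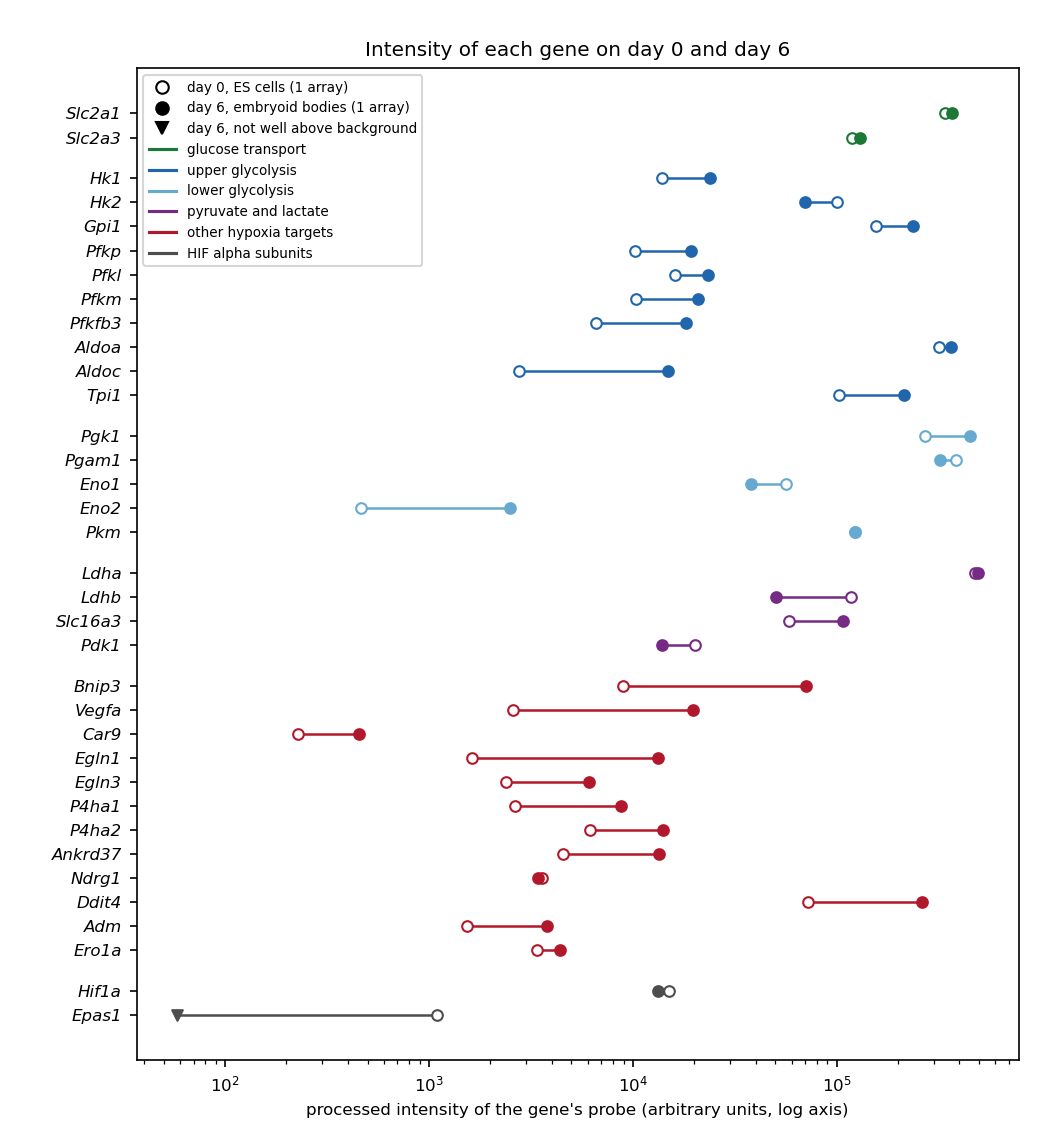
Processed intensity (log axis) of each of the 35 genes on the day 0 array (open circles) and the day 6 array (filled), grouped and coloured by role; a triangle marks a day 6 signal not well above background. Most glycolytic genes lie above 10000 on both days with short lines, and most hypoxia targets move right from a lower start.

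The glucose transporter genes were bright and nearly equal on both days. Slc2a1 (GLUT1, the broadly expressed glucose carrier) gave 341309 intensity units at day 0 against 367467 at day 6, a difference of -0.12 ± 0.20 after scaling. Slc2a3 (GLUT3, the high-affinity carrier of neurons and early embryos) had 119390 and 129835, a difference of -0.10 ± 0.20. Both differences were smaller than the software error. A further probe named Slc2a3 was made for another accession and placed on chromosome 17 of the mm7 build, while the gene's other 2 probes lay on chromosome 6; it gave 329 on day 0, only background at day 6 (21.4), and a value at least 4.51-fold lower.

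Of 10 genes of the upper (hexose) part of the pathway 8 were above 0, with a median of 0.63. Of all 14713 measured genes 6811 were above 0. Hk1 and Pfkp, among the 8, each fell below 0 in 1 alternative setting. The upper part was taken to include Tpi1 and the regulator gene Pfkfb3. By their brightest probes the hexokinases went opposite ways. Hk2, the inducible hexokinase that starts glycolysis, had 100635 and 69898 intensity units (1.68-fold lower, -0.75 ± 0.20). Hk1, the constitutive hexokinase of brain, had 13895 and 23863 (1.47-fold higher, 0.56 ± 0.20). The 3 dimmer measured Hk1 probes gave differences between -0.07 and 0.19, so only the brightest Hk1 probe exceeded its software error. Gpi1, which converts glucose-6-phosphate to fructose-6-phosphate, was measured on 8 spots per array and had 155827 and 235738 (0.37 ± 0.20).

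All 3 phosphofructokinase genes, the committed step, were higher on day 6 by less than 2-fold with their brightest probe. In each, the day 6 signal alone had been scaled up from a scan at lower gain, the effect of which was not tested. Pfkm (muscle form) had 10409 and 20805 (0.78 ± 0.20), and Pfkl (liver form) had 16157 and 23320 (0.31 ± 0.20). Pfkp (platelet form) had 10248 and 19353 by its brightest probe (0.69 ± 0.20), but its other probes gave -0.55 and 0.05. Its direction therefore depended on the probe. Pfkfb3, which makes the allosteric activator fructose-2,6-bisphosphate, was 2.37-fold higher, from 6597 to 18222, and its 2 dim probes gave 0.70 and 0.92.

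The aldolase genes differed from each other. Aldoa, the ubiquitous form, had 318080 and 363460 intensity units, a difference of -0.03 ± 0.20, and its second probe gave -0.01. Aldoc, the brain form, had 2756 and 14808 and was 4.60-fold higher (2.20 ± 0.20). A second Aldoc probe, for a cDNA clone, was well above background on day 6 only and was at least 1.24-fold higher. Tpi1, which interconverts the triose phosphates, had 102264 and 213417 (1.79-fold higher, 0.84 ± 0.20). It passed 2-fold with quantile normalization (1.16), which gives both arrays the same distribution, and in the authors' value table (1.17), which nearly does so too.

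The 5 genes of the lower part, from Pgk1 to Pkm, had a median of -0.23, and here too the enolase genes went opposite ways. Tpi1 (0.84), also a triose enzyme, was counted with the upper part. With Tpi1 among the lower genes the middle values would be -0.23 and 0.52, on both sides of 0. Eno1, the general enolase, had 56596 and 37764 intensity units and was 1.75-fold lower (-0.81 ± 0.20). Eno2, the neuron-specific enolase, had 463 and 2505 and was 4.63-fold higher (2.21 ± 0.21); its second probe gave 3.20. Eno2 and Aldoc are both forms known from neurons or brain, and they had the largest differences among the 21 glycolytic genes. The part of neural cells in the Eno2 and Aldoc values was not tested. Pgk1, the first ATP-making enzyme, was spotted 10 times per array, with an SD between spots of 0.036 log2 units on each day, and had 269834 and 451798 (0.52 ± 0.20). Pgam1 (phosphoglycerate mutase) had 383685 and 321949 (-0.48 ± 0.20), and Pkm (pyruvate kinase) 122573 and 122310 (-0.23 ± 0.20). The files do not say which Pkm splice form, M1 or M2, a probe detects.

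The 4 genes for the fate of pyruvate had a median of -0.46. Ldhb, the lactate dehydrogenase subunit favoured in oxidative tissue, had 116991 and 50276 intensity units and was 2.72-fold lower (-1.44 ± 0.20), the only glycolytic gene at least 2-fold lower. Ldha, the subunit favoured in lactate-making cells, was the brightest of the 35 on both days, with 476863 and 495394 (-0.17 ± 0.20; its second probe gave 0.02). Slc16a3 (MCT4, a lactate exporter) had 58365 and 107773 (1.58-fold higher, 0.66 ± 0.20), and passed 2-fold with quantile normalization (1.06) and in the value table (1.02). Pdk1, the kinase that keeps pyruvate out of the mitochondrion, had 20075 and 13897 (1.69-fold lower, -0.75 ± 0.20), and its other probe gave -0.19. Pdk1 and Ldha are well known HIF targets.

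For the brightest genes the sign of a small difference depended on the scaling. With quantile normalization and in the value table, the differences of Slc2a1, Slc2a3, Aldoa, Pkm and Ldha were above 0 (between 0.05 and 0.34), and below 0 with 75th percentile scaling. Quantile normalization and the value table both give the arrays nearly the same distribution, so they are not independent. Whether any of these 5 genes was higher or lower on day 6 could not be settled from these arrays.

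**Figure D2:**
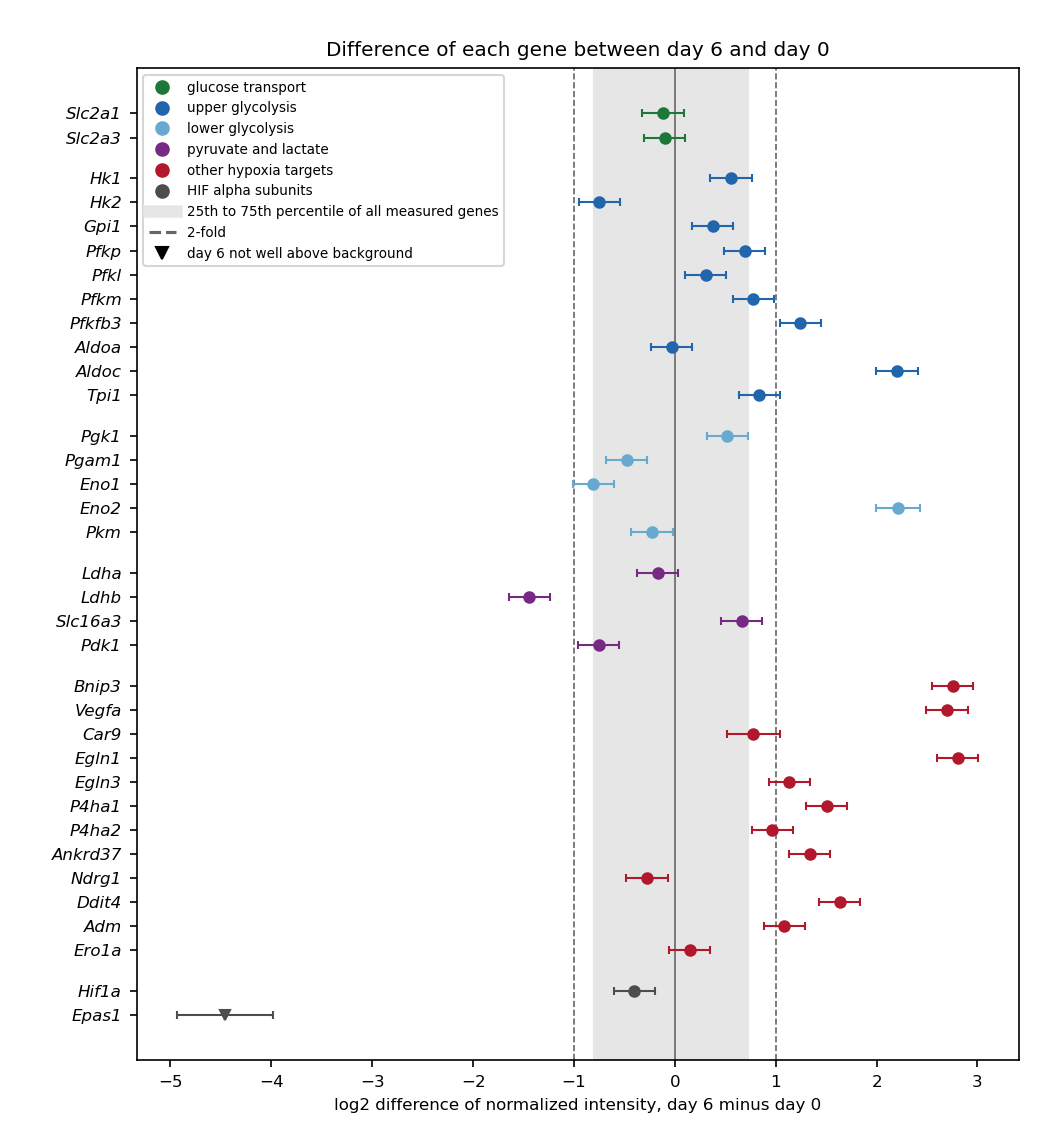
Difference between day 6 and day 0 (log2, normalized intensity) of each gene, with the software error (SD) as bars; the grey band runs from the 25th to the 75th percentile of all measured genes (-0.80 to 0.73), and dashed lines mark 2-fold. Of the 12 hypoxia targets 8 lie right of the 2-fold line, and Ldhb and Epas1 lie left of it.

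Among the hypoxia targets, Egln1, Bnip3 and Vegfa had the largest differences of all 35 genes. Egln1 (PHD2), the main oxygen-sensing prolyl hydroxylase and itself induced by HIF, had 1623 and 13239 intensity units and was 6.99-fold higher (2.80 ± 0.20); its second probe gave 2.70. Bnip3, a mitochondrial protein that drives mitophagy, had 8984 and 70863 and was 6.76-fold higher (2.76 ± 0.20). Its only probe lies on chromosome 7, 135295711 to 135295770 (mm7). Vegfa, the growth factor of blood vessels, had 2590 and 19627 and was 6.49-fold higher (2.70 ± 0.20). All 3 Vegfa probes were at least 2-fold higher, and the other probes gave 1.84 and 1.5.

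A second tier of hypoxia targets was 2-fold to 4-fold higher. Ddit4 (REDD1), an inhibitor of the growth kinase complex mTORC1, had 72395 and 262038, a difference of 1.63 ± 0.20. P4ha1, a collagen prolyl hydroxylase subunit, had 2644 and 8756 (2.84-fold higher; its second probe gave 1.48), and its relative P4ha2 had 6149 and 14026 (1.95-fold, 0.97 ± 0.20), just inside the 2-fold line. The fibroblast collagen markers lay on both sides of 0, with differences of -4.32 for Col1a1, -1.59 for Col1a2, -1.56 for Col5a2 and 0.22 for Col3a1; the part of fibroblasts in the P4ha1 and P4ha2 values was not tested. Ankrd37, an ankyrin repeat gene known chiefly as a HIF target, had 4537 and 13384 (2.53-fold higher). Egln3 (PHD3), the inducible prolyl hydroxylase, had 2383 and 6115 (2.20-fold higher), and Adm, the vasodilator peptide adrenomedullin, 1538 and 3813 (2.12-fold higher). With median scaling Adm came to 0.97, under 2-fold.

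The remaining hypoxia targets were closer to 0. Car9 (carbonic anhydrase 9, a pH regulator and a classic HIF-1 marker) was dim on both days, with 228 and 456 intensity units, and was 1.72-fold higher (0.78 ± 0.26). Ndrg1, a stress-responsive gene, had 3567 and 3436, a difference of -0.28 ± 0.20, the only hypoxia target below 0. Ero1a, an oxidase of protein folding, had 3395 and 4393 by its brighter probe (0.15 ± 0.20). Its other probe was 2.34-fold higher, with 1570 and 4289, so whether Ero1a passed 2-fold depended on the probe.

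The call or direction of Ero1a and Pfkp depended on the probe, so 1 probe of each is printed here. Each sequence is 60 bases long and is the probe whose genome coordinates extend over more than its own length (1704 bases for Ero1a and 2155 for Pfkp, mm7), as for a probe set across an intron. They are given in lower case with no part marked, and each gave the lowest difference among its gene's probes (0.15 and -0.55).
Ero1a probe: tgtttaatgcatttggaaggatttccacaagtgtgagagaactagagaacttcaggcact
Pfkp probe: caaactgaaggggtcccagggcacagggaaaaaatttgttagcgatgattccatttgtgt
The highest difference came from another probe in each gene, 1.23 in Ero1a and 0.69 in Pfkp. Probes with such a span were not the lowest in every gene: that of Ldha (930 bases) gave 0.02 against -0.17. The 3 Vegfa probes, each with a span of 60 bases, gave log2 differences from 1.5 to 2.70. Of the 35 genes, 14 had 2 or more probes that were measured on both arrays. In 11 of these 14 genes all such probes lay on the same side of 0, and in 12 all fell in the same 2-fold class. The probes of Pgk1, of Aldoa and of Eno2 share long runs of sequence within each gene, so they are not separate readings.

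**Figure D3:**
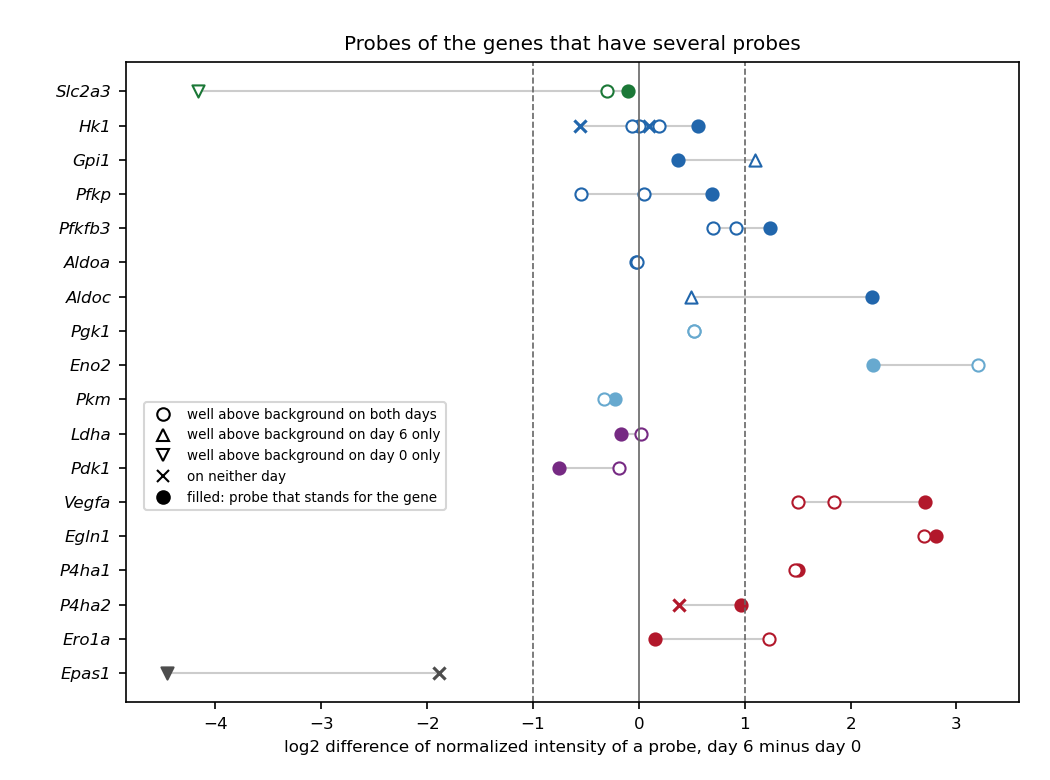
Difference between day 6 and day 0 (log2, normalized intensity) of every probe of the 18 genes with several probes; the filled marker is the probe that stands for the gene, and the shape tells on which array it was well above background. The probes of Egln1, P4ha1, Pgk1 and Aldoa nearly coincide, and those of Pfkp, Hk1 and Ldha lie on both sides of 0. The Pgk1 probes share sequence with each other, as do the Aldoa probes.

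The genes for the HIF alpha subunits were not higher on day 6. Hif1a, whose protein is controlled mainly by its breakdown and less by its messenger RNA, had 15062 and 13308 intensity units (-0.40 ± 0.20). Epas1 (HIF-2 alpha, the form known from endothelium) had 1090 at day 0 but 57.8 at day 6, which was not well above background, so it was at least 14.9-fold lower with the scanner software's background subtraction. Its difference was -4.46 as measured, -3.18 with normexp background correction and -3.04 with no background subtraction, both smaller than that bound of -3.90. That value came from a probe for a cDNA clone at chromosome 17, 85101159 to 85101218 (mm7). The probe for the RefSeq transcript of Epas1, at 85133910 to 85133969, was not well above background on either array, so the Epas1 value rests on 1 probe. The endothelial markers Tek and Pecam1 were also seen on day 0 only, at least 12.3-fold and 9.59-fold lower, while Cdh5 had 203 and 344; in all, 3 of 4 endothelial markers were at least 2-fold lower, with summed intensities of 2995 and 987. Their part in the Epas1 value was not tested, and in bulk RNA fewer cells of a type and less RNA per cell cannot be told apart.

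Set side by side, the difference between the median of the hypoxia targets and that of the glycolytic genes was 0.93 log2 units. The glycolytic group includes transporters, Pfkfb3 and the genes for the fate of pyruvate. Without these, the 14 enzymes of the pathway had a median of 0.45, nearer to that of the hypoxia targets. Of the 21 glycolytic genes, 3 exceeded the hypoxia target median, and 10 of the 12 hypoxia targets exceeded the glycolytic median. The groups also differed in brightness. By the geometric mean of both days, 9 glycolytic genes and 1 hypoxia target had an intensity of at least 100000, and 10 of the 12 hypoxia targets lay under 10000. Bright genes as a whole differed less: of 494 measured genes at 100000 or more, 1.01% were at least 2-fold higher and the median was -0.28, while of 10090 genes under 10000, 25.9% were at least 2-fold higher and the median was 0.035. Against these, the 9 bright glycolytic genes had a median of -0.10 with 0 past 2-fold, and the 10 dim hypoxia targets a median of 1.11 with 6 at least 2-fold higher. The part of brightness in the difference between the groups was not tested. The glycolytic median also depended on the probe rule. It was 0.066 with the mean over a gene's probes, 0.024 with the dimmest measured probe and -0.031 with naming by accession. The hypoxia median stayed between 1.24 and 1.34 in these settings, but naming by accession left out Ndrg1, the only hypoxia target below 0.

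**Figure D4:**
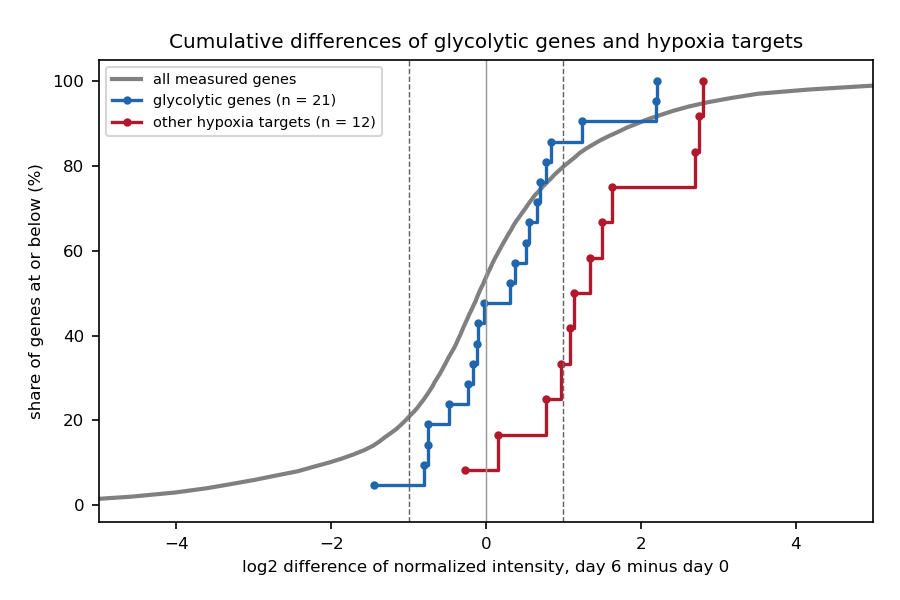
Cumulative share (%) of genes at or below each difference between day 6 and day 0 (log2, normalized intensity) for the 21 glycolytic genes, the 12 other hypoxia targets and all measured genes. The glycolytic curve is steeper than that of all genes, with its median at 0.31 (-0.09 for all genes). Of the 21 glycolytic genes 3 were at least 2-fold higher (20.2% of all genes) and 1 was lower (20.8%). The hypoxia target curve lies to the right, with its median at 1.24.

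The promoters of these genes are shown because the hypoxia targets share a regulator. The motif was searched as ACGTG and GCGTG on both strands of the 250 bases before the start of each gene, from RefSeq (GRCm38.p6), and a gene counted when any of its windows held it. Windows were matched for 32 of the 35 genes, and not for Slc2a3, Ndrg1 and Epas1. The motif was found in 11 of 11 hypoxia targets and 17 of 20 glycolytic genes, against 58.5% of 11640 measured genes and 41.5% of all 27025 genes with a window. Vegfa counted only by its window at chr17:46025164-46025413, which held 2 matches. On the minus strand this window lies downstream of the gene's other start, so its matches may be in transcribed sequence and not in a promoter. The other window, further upstream at chr17:46032378-46032627, held 0. Hk1, Pfkm, Aldoa, Pkm and Pdk1 likewise had a window with 0 and another with a match. The windows of these genes were also rich in G and C, with a median GC share of 69.6% for hypoxia targets, 63.4% for glycolytic genes and 60.4% for measured genes, and the motif holds a CG pair; the part of base composition was not tested. The stretches printed run from 15 bases before the first match to 15 after the last, 5′ to 3′ on the gene's strand, with the matches in capitals (CACGT and CACGC are the motif on the other strand, and CACGTG is a match on both).
Bnip3, chr7:138909522-138909638, minus strand: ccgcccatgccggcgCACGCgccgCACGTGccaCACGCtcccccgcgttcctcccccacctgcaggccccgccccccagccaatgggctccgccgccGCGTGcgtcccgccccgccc
Egln1, chr8:124949303-124949395, minus strand: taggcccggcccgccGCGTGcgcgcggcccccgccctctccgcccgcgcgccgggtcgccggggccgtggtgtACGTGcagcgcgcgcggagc
Ddit4, chr10:59951866-59951972, minus strand: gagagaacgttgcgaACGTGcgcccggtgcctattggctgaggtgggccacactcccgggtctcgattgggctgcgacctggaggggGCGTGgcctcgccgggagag
Ldha, chr7:46845644-46845789, plus strand: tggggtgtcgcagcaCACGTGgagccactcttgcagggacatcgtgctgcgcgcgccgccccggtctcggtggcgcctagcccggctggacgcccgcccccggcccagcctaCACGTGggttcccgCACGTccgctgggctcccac
Pgk1, chrX:106186935-106186988, plus strand: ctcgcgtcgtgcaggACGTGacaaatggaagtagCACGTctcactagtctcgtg
Slc2a1, chr4:119108669-119108728, plus strand: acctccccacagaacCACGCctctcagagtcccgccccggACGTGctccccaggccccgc
Bnip3 and Ldha each held 5 matches in 1 window, the most in any window of the 32 genes, and they differed by 2.76 and -0.17. Both windows hold CACGTG, which adds a match on each strand, so this ranking depends on that way of counting. Eno2, 4.63-fold higher, held 0 in its window, as did Gpi1 and Tpi1. A match is a run of letters, not a binding site.

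Further genes of the pathways were listed with earlier results of these data known. Of 30 other measured hypoxia targets, 8 were higher by 2-fold or more and 8 lower (7 and 7 with dim signals at their bound), with a median of 0.12; of all measured genes, 20.2% were higher and 20.8% lower by as much, near the shares of this list. On the higher side, Ppp1r3c, which brings a phosphatase to glycogen, was at least 46.5-fold higher. Vldlr, a lipoprotein and reelin receptor, was 38.8-fold higher and Pygl, liver glycogen phosphorylase, 34.7-fold. On the lower side, Lox, a collagen cross-linking enzyme and fibroblast marker, was at least 118-fold lower, and Angptl4, a lipase inhibitor, 7.16-fold. Past 2-fold on the higher side were 8 of these 30 and 8 of the 12 described first, a difference that was not tested.

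Of 13 measured genes that regulate HIF, 2 were at least 2-fold higher and 0 lower, against 20.2% and 20.8% of all measured genes, with a median of -0.21. Arnt2, the neural partner of the HIF alpha subunits, had 245 and 2091 intensity units and was 7.30-fold higher. Vhl, which binds hydroxylated HIF alpha for destruction, was 2.60-fold higher. Arnt, the general partner, had 9557 and 8702 (-0.36 ± 0.20). Of 15 other measured glycolysis genes, 6 were at least 2-fold higher and 2 lower, against the same 20.2% and 20.8%, with a median of 0.15. Eno3, the muscle enolase, was 3.20-fold higher, and the hexokinase gene Hkdc1, seen on day 6 only, at least 3.97-fold. Ldhc, the testis lactate dehydrogenase, was 10.5-fold lower and Tigar, which lowers fructose-2,6-bisphosphate, 5.17-fold lower.

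**Figure D5:**
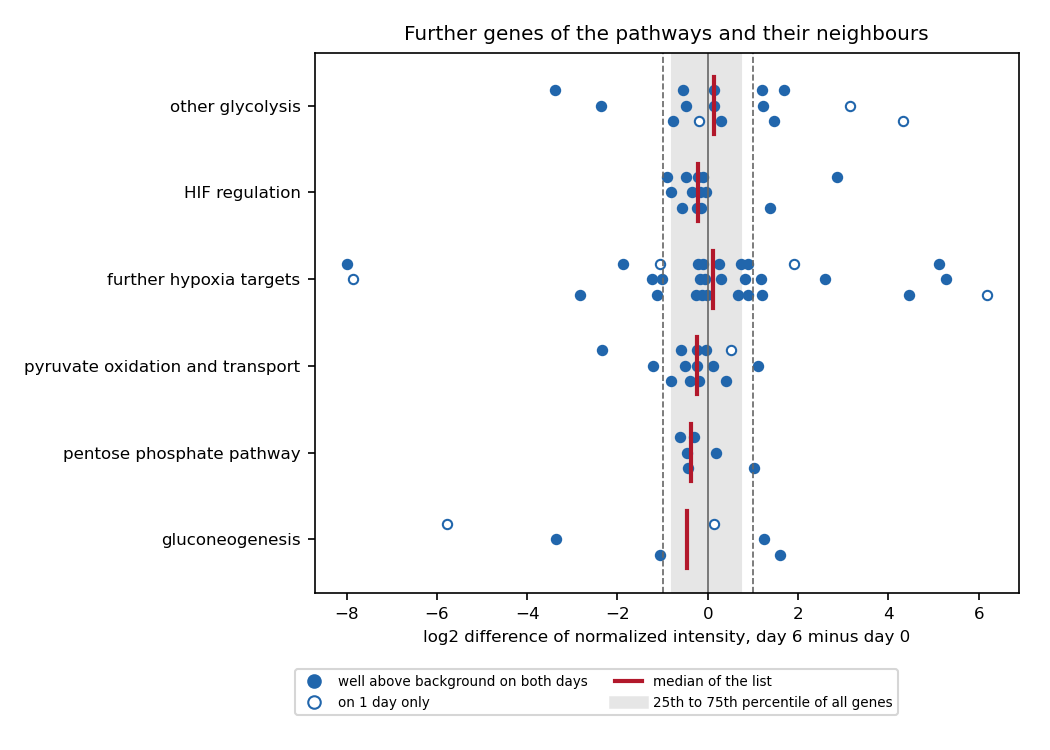
Difference between day 6 and day 0 (log2, normalized intensity) of each measured gene in 6 lists of related pathways; red bars are list medians, open circles are genes well above background on 1 array only, and grey is the 25th to 75th percentile of all measured genes. All 6 medians lie within the grey band, and the further hypoxia targets spread the most.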

How the data were processed

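Gene expression was measured on 2 Agilent arrays, 1 of day 0 ES cells and 1 of day 6 embryoid bodies. Per the file headers, the deposited intensity values came from Feature Extraction 9.5.3.1 with array design 014868 and probe positions in mm7. The intensities had been background-subtracted and detrended, and their errors, mean signals and local backgrounds were given beside them. The authors also deposited a log2 value table, with no record here of its steps; its sorted columns differed by at most 0.000469, and it served as an alternative.

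Controls and spots marked as outliers were dropped (186 and 216 among gene probes), spots of a probe were averaged as log2 values, and the 75th percentile was subtracted (3758 and 4388 intensity units). Probes well above background on at least 1 array were used, and each gene took its brightest probe. Of 41174 gene probes, 24524 carried a current symbol of the RefSeq table (GRCm38.p6, names only), 32294 could be named with older symbols and 8880 had no name. A gene well above background on 1 array has a bound, with the dim array at the higher of its lowest such signal (102 and 85.2) and its own. No member was saturated. The software had scaled up bright signals from a scan at lower gain. This held for 14 (day 0) and 17 (day 6) of 21 glycolytic genes, and for 1 and 2 of 12 hypoxia targets. Hk1, Pfkp, Pfkl, Pfkm and Bnip3 had such a signal on day 6 only, and Pdk1 on day 0 only. The effect of the gain on the differences was not tested. Processed pseudogenes of glycolytic genes may share probe sequence, which was not examined.

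The members, role groups and other lists were chosen with earlier results of these data known. All 35 members are named; of other lists, at most the 3 largest differences per direction past 2-fold, and cell type markers beside a result; Arnt was added after its values were seen, and some genes that this rule names are not reported here. Calculations used Python 3.11.15 with numpy 2.4.6 and pandas 2.3.3, and limma 3.58.1 for normexp (offset 50) and quantile normalization. The counting was checked on simulated data.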

Additional observations from a re-analysis of the deposited data

How the results depend on the processing

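No paired analysis was possible because each group had 1 array, and for the same reason no replicate was left out. The count of higher genes lay between 10 and 14 under the 13 alternatives that kept the 2-fold threshold, and was 17 at 1.5-fold (28.1% of all genes) and 5 at 4-fold. The count of lower genes was 1 if both arrays had to be well above background and with naming by accession, where Epas1 was not measured, 5 at 1.5-fold (31.3%) and 1 at 4-fold; it was 3 with the mean over probes and with the dimmest probe, where Slc2a3 came to -1.52 and -4.16. Medians counted as moved past 1 software error. The glycolytic median was 0.066 with the mean over probes, 0.024 with the dimmest probe and -0.031 with naming by accession. The gap to the hypoxia targets was then 1.17, 1.26 and 1.37. These settings use other probes by construction. Naming by accession measured 33 of the 35 genes and also left out Ndrg1, the only hypoxia target below 0, so its hypoxia target median is of fewer genes. The hypoxia target median moved under 0 of its alternatives. Of 452 values of single genes under the alternatives, 51 moved and 0 genes past 2-fold reversed. Of the 11 higher genes, 8 stayed past 2-fold in every alternative; Pfkfb3, Aldoc and Adm did not. Signal over background limits Epas1 and Car9.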

Other observations

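Pathways next to glycolysis are given beside all measured genes, of which 20.2% were at least 2-fold higher and 20.8% lower. Of 6 measured genes of the pentose phosphate pathway, which makes NADPH and ribose, 1 was at least 2-fold higher and 0 lower, with a median of -0.38; Pgls, its lactonase, had intensities of 19711 and 46717 and was 2.03-fold higher. Of 14 measured genes of pyruvate oxidation and transport, 1 was at least 2-fold higher and 2 lower, with a median of -0.24. Pdk4, a kinase that inhibits pyruvate dehydrogenase, had 1124 and 258 and was 5.08-fold lower, and Mpc1, a subunit of the mitochondrial pyruvate carrier, was 2.31-fold lower. Pdp1, the phosphatase that reactivates pyruvate dehydrogenase, was 2.17-fold higher.

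Of 6 measured gluconeogenesis genes, 2 were at least 2-fold higher and 3 lower, against 20.2% and 20.8% of all measured genes. The fructose bisphosphatase genes were both lower: Fbp1 had 1575 and 178 intensity units (10.3-fold lower), and Fbp2 was seen on day 0 only and was at least 15.2-fold lower. Pcx, pyruvate carboxylase, was 2.07-fold lower. G6pc3, the widely expressed glucose-6-phosphatase, was 3.03-fold higher and Pck2, the mitochondrial form of phosphoenolpyruvate carboxykinase, 2.38-fold higher. These lists were chosen with earlier results known, and each gene has 1 array per group.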
